A study of Drosophila melanogaster with 8 samples.

Results

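The comparison described here sets wild-type fat body after 16 h of starvation against wild-type fat body after 4 h, and asks what prolonged food deprivation adds to or takes from the early response. It uses 4 of the 8 libraries of the series, 2 from each time, chosen by their genotype and starvation labels. The fat body came from Drosophila melanogaster at the larval stage, without an age in hours. Both groups carried the OreR (Oregon R) wild-type genotype, a standard laboratory strain, and their labels differed only in the time without food. The labels give no separate fed group for each starved time. Time without food therefore cannot be told apart from larval age or time of collection. 2 fed wild-type libraries (OreR) give the starting level of each gene, and 2 libraries from 16 h starved larvae homozygous for the CPSF5 H11 allele entered the fit for its estimate of spread. The labels do not say whether the 2 libraries of a group came from separate groups of animals, so every p-value measures the spread between these libraries, which may be technical.

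The fat body stores fat, glycogen and protein and senses nutrients for the whole larva, much as liver and adipose tissue do in mammals. When food is withdrawn, insulin and TOR signalling fall, the transcription factor FOXO enters the nucleus, stored lipid is broken down and oxidised, and autophagy recycles cytoplasm. The same tissue makes the humoral peptides of the immune and stress responses and, late in larval life, the storage proteins used in metamorphosis.

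Levels are given as scaled TPM, the authors' TPM (a transcript level per length, relative to the whole library) divided by a factor per library that lines up the typical gene. Log2 fold changes (log2FC) are differences of log2(scaled TPM + 1), 16 h minus 4 h, and understate changes of genes at low levels. The libraries differed in the kinds of RNA they held. Ribosomal RNA with its pseudogenes took 55.1% and 35.2% of TPM at 16 h, against 13.7% and 15.8% at 4 h. 7SL RNA, which scaffolds the particle that guides secreted proteins, held 11.8% and 19.0% at 16 h, against 36.6% and 40.3% at 4 h. Nuclear protein-coding genes were left with 17.6% and 28.1% at 16 h, against 36.6% and 35.7% at 4 h. Without scaling the median gene therefore stood at a log2FC of -0.31, after rescaling over coding genes it stood at 0.17, and with the scaling used here it stood at 0.02. On a principal component holding 7.91% of the variance, 16 h replicate 1 (46.3) and 4 h replicate 2 (-42.1) stood at opposite ends, with the other 2 starved wild-type libraries near 0 (-1.78 for 16 h replicate 2 and 1.59 for 4 h replicate 1). Across 8332 genes, Spearman's rho was 0.886 between the 2 libraries at 16 h and 0.902 between those at 4 h, and it ran from 0.835 to 0.908 between libraries of different times. TPM keep no read depth, so depth is unknown.

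Few genes separated 16 h from 4 h beyond the spread of the libraries. Of 8332 genes tested, 3 were lower at 16 h (0.036% of genes) and 0 were higher (0% of genes) by limma at a Benjamini-Hochberg adjusted p under 0.05. At an unadjusted p under 0.05, 693 genes were higher (8.32% of genes) and 644 were lower (7.73% of genes), and these shares are the background for every list below. The 2 libraries at 16 h both lay above those at 4 h for 22.7% of genes and both lay below for 22.6%. The median gene had an unadjusted 95% interval reaching 0.547 to each side of its log2FC. Differences smaller than that were mostly not detectable with 2 libraries a group, even before adjustment. Much larger ones could still fail the adjusted test, as the gene sug did with a log2FC of 2.12 (limma adjusted p = 0.0885). A difference beyond 1 on the log2 scale, in either direction, was present in 651 genes, and 1 beyond 2 in 125 genes. Genes that were not called are therefore not shown to be unchanged. For a single gene, the smallest two-sided p of an exact permutation test in this design is 0.333. The calls therefore depend on limma's pooling of spread over genes and over the 8 libraries. The split between directions depends on the scaling, with 95 genes higher and 1511 lower at an unadjusted p under 0.05 without scaling, 849 higher and 247 lower with rescaling over coding genes, and 526 higher and 757 lower with quantile normalization.

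**Figure D1:**
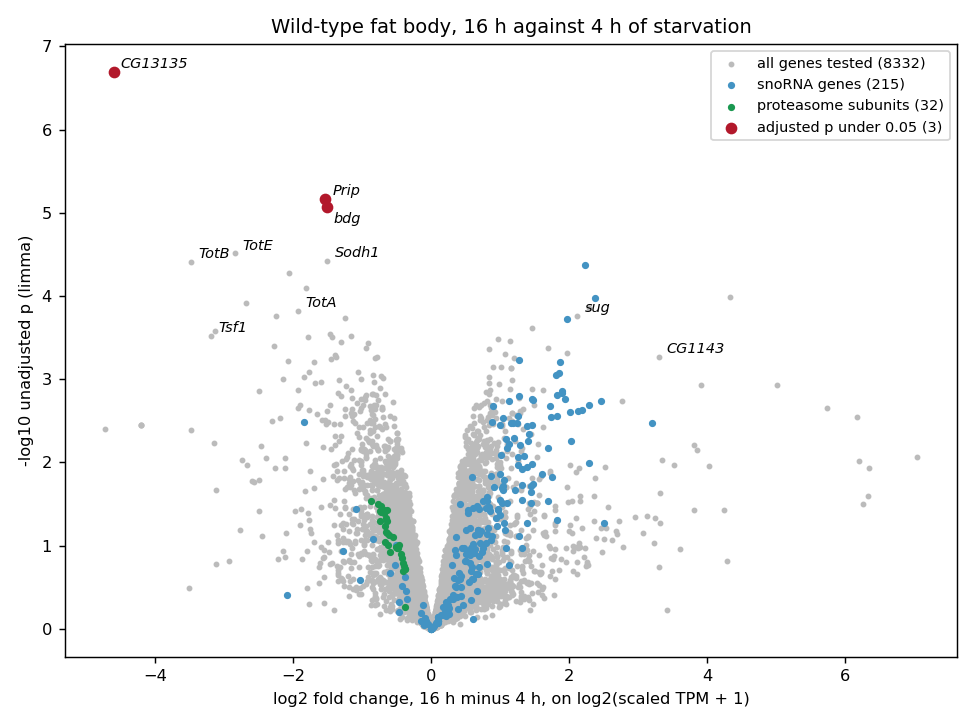
Each point is 1 of 8332 genes, with the log2FC of 16 h minus 4 h on the horizontal axis and -log10 of the unadjusted limma p on the vertical axis. The 3 genes that passed the adjusted test (red) all lie on the lower side, snoRNA genes (blue) lie mostly to the right of 0, and the 32 proteasome subunits (green) all lie to its left.

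CG13135, Prip and bdg were the 3 genes that fell at 16 h, and all 3 had been high at 4 h. CG13135 (FBgn0032184, chromosome 2L, 10122129 to 10122771, minus strand), a protein-coding gene without a named function in the annotation, stood at 0 and 0.0664 scaled TPM at 16 h, against 20.9 and 27.7 at 4 h. Its fed libraries held 0.0857 and 0.0501, so both 16 h libraries were at the fed level and both 4 h libraries were far above it. The fall had a log2FC of -4.60 (SE 0.18, limma adjusted p = 0.00169). Prip (FBgn0033635, chromosome 2R, 11436243 to 11442216, plus strand), an aquaporin water channel, stood at 5.21 and 4.81 at 16 h, against 16.7 and 16.3 at 4 h, and at 0.481 and 0.583 in fed larvae. Its 16 h libraries lay below both 4 h libraries and above both fed ones (16 h minus 4 h: log2FC -1.54, SE 0.11, limma adjusted p = 0.0234). bdg (bedraggled, FBgn0034049, chromosome 2R, 15923040 to 15931935, minus strand), a member of the neurotransmitter transporter family, stood at 1.36 and 1.16 at 16 h, against 5.47 and 5.45 at 4 h, and at 2.25 and 2.36 in fed larvae. Here the 16 h libraries lay below both other groups (log2FC -1.52, SE 0.11, limma adjusted p = 0.0234). CG13135 overlaps CG34109 on the other strand and CG44153 on its own strand, neither of which reached the level needed for testing. The CG13135 call was lost without 4 h replicate 1 (limma adjusted p = 0.0506). The Prip and bdg calls were lost without either 4 h library, either fed library or either mutant library (limma adjusted p between 0.0594 and 0.144), while their log2FC stayed between -1.55 and -1.52.

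**Figure D2:**
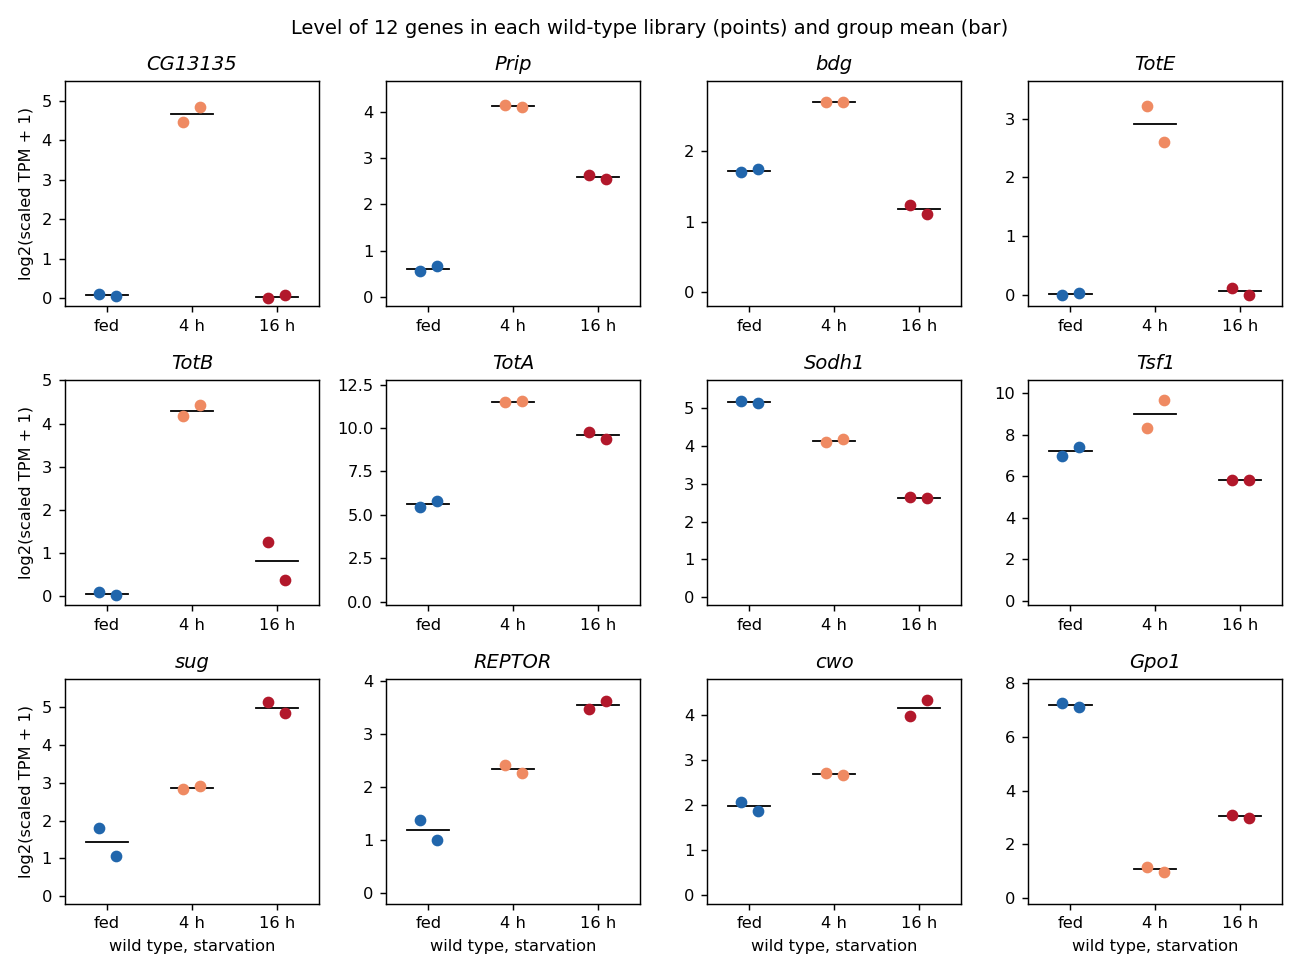
Level of 12 genes as log2(scaled TPM + 1) in each fed, 4 h and 16 h wild-type library (points), with the mean of each group as a bar. CG13135 and TotE were near 0 when fed and at 16 h and high at 4 h, TotB was low but above fed at 16 h, while sug, REPTOR and cwo stood higher at each later time, and only CG13135, Prip and bdg passed the adjusted test between 16 h and 4 h.

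Just outside the threshold stood the Turandot genes TotE and TotB, which encode secreted humoral stress peptides, the sorbitol dehydrogenase gene Sodh1 and a snoRNA. TotE (chromosome 2L, 19912938 to 19913516, minus strand) was listed at 0.0848 and 0 at 16 h, against 8.29 and 5.06 at 4 h, with fed libraries at 0 and 0.0193. TotB (chromosome 3R, 20873938 to 20874522, plus strand) stood at 1.41 and 0.300 at 16 h, against 17.1 and 20.5 at 4 h, with fed libraries at 0.0732 and 0.0191. In both genes the 16 h libraries lay below both 4 h libraries, and those of TotB were still above both fed libraries (limma adjusted p = 0.050003 for each, log2FC -2.85 for TotE and -3.48 for TotB), and TotE overlaps the gene sick on the other strand. TotA, the most abundant of the family, stood at 880 and 663 at 16 h, against 2886 and 2950 at 4 h, and at 42.6 and 54.2 in fed larvae (log2FC -1.93, 95% interval -2.50 to -1.36). TotC stood at 5.34 and 2.44 at 16 h, against 84.1 and 19.3 at 4 h. In all 4 of these genes the 16 h libraries lay below the 4 h libraries, and in TotA they were still far above fed. The list of Turandot genes and other JAK-STAT targets had 11 of 18 members tested. Of these, 4 were lower and 0 higher at an unadjusted p under 0.05, with a median log2FC of -0.25. With 1 starved wild-type library left out, that median ran from -0.50 (without 4 h replicate 1) to -0.10 (without 16 h replicate 2). It was -0.72 without scaling, -0.05 with rescaling over coding genes and -1.75 for genes averaging at least 5 scaled TPM. Sodh1 stood at 5.23 and 5.12 at 16 h, against 16.0 and 17.2 at 4 h, and at 35.3 and 34.1 in fed larvae, a stepwise order without overlap (limma adjusted p = 0.050003).

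Other genes with small p on the lower side had the same shape of a high value at 4 h. Cpr51A, a cuticle protein gene, stood at 0.620 and 1.17 at 16 h, against 6.48 and 7.18 at 4 h (limma adjusted p = 0.0558). CG30197 stood at 0.947 and 0.428 at 16 h, against 6.95 and 13.5 at 4 h. Cpr51A and CG30197 lie on opposite strands of the same stretch of chromosome 2R (14512559 to 14515211 and 14514030 to 14514992), and the use of strand in counting is not given in the sources used here, so their reads cannot be told apart. axed, a BTB-domain protein known from axon degeneration, stood at 0.422 and 1.10 at 16 h, against 6.06 and 8.58 at 4 h. PH4alphaPV, a subunit of a collagen-type prolyl hydroxylase, stood at 0.357 and 0.0152 at 16 h, against 13.4 and 6.30 at 4 h. CG11170 stood at 2.70 and 3.03 at 16 h, against 7.39 and 9.03 at 4 h. In all of these the fed libraries were below both 4 h libraries, with the highest fed values at 1.73 for Cpr51A, 1.03 for CG30197, 0.278 for axed, 0.386 for PH4alphaPV and 1.44 for CG11170. Tsf1, the iron carrier transferrin, stood at 55.6 and 55.2 at 16 h, against 326 and 815 at 4 h, and at 127 and 171 in fed larvae (log2FC -3.19, limma adjusted p = 0.104), and its 16 h libraries lay below both other groups.

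On the higher side no gene passed, and the genes of smallest p included regulators of growth and sugar response. sug (sugarbabe), a zinc-finger transcription factor known from the response to dietary sugar, stood at 34.1 and 27.8 at 16 h, against 6.14 and 6.52 at 4 h, and at 2.52 and 1.09 in fed larvae (log2FC 2.12, 95% interval 1.48 to 2.76, limma adjusted p = 0.0885). cwo (clockwork orange), a repressor of the circadian clock, stood at 14.7 and 19.2 at 16 h, against 5.55 and 5.38 at 4 h, and at 3.21 and 2.66 when fed. REPTOR, a transcription factor that TOR holds in check, stood at 10.002 and 11.2 at 16 h, against 4.36 and 3.80 at 4 h, and at 1.61 and 1.003 when fed. These 3 genes kept one order in every library, with fed lowest, 4 h between and 16 h highest. Gpo1, the mitochondrial glycerol-3-phosphate dehydrogenase, differed in shape, with 7.56 and 6.94 at 16 h, against 1.25 and 0.993 at 4 h, and 150 and 137 in fed larvae. CG1143 stood at 9.90 and 11.2 at 16 h, against 0.309 and 0.0553 at 4 h, and CG31704 at 10.9 and 15.1 at 16 h, against 1.76 and 1.91 at 4 h. Both had fed levels between those of the other groups (5.27 and 1.59 for CG1143, 3.12 and 5.95 for CG31704), and CG31704 lies within Pde1c on the other strand.

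The remaining genes of this set differed by smaller steps. Sec20, a SNARE of the Golgi-to-ER route, stood at 9.37 and 10.3 at 16 h, against 4.94 and 5.21 at 4 h. PIG-L, an enzyme of GPI anchor synthesis, stood at 4.91 and 6.30 at 16 h, against 2.20 and 2.07 at 4 h. Cul2, a cullin scaffold of ubiquitin ligases, stood at 16.8 and 16.5 at 16 h, against 9.61 and 8.12 at 4 h. rogdi stood at 15.1 and 14.3 at 16 h, against 6.44 and 7.16 at 4 h. smash, a protein of epithelial cell junctions, stood at 7.21 and 8.69 at 16 h, against 3.42 and 4.26 at 4 h. LTV1, an assembly factor of the small ribosomal subunit, stood at 32.7 and 35.8 at 16 h, against 16.0 and 17.9 at 4 h, below its fed level of 51.1 and 53.1. The groups of all 6 genes did not overlap because the rule that chose them required it. Their limma adjusted p lay between 0.11 and 0.139.

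Insulin pathway genes stood higher at 16 h. All 17 tested members of the list of insulin signalling genes and FOXO targets had a positive log2FC, with a median of 0.52 against 0.02 for all genes, and 7 were higher and 0 lower at an unadjusted p under 0.05. No member passed the adjusted test. InR, the insulin receptor, stood at 3.28 and 3.83 at 16 h, against 1.87 and 1.12 at 4 h, and at 0.379 and 0.190 in fed larvae. chico, the insulin receptor substrate, stood at 7.95 and 8.17 at 16 h, against 4.83 and 4.39 at 4 h, and at 6.97 and 6.87 when fed. foxo itself stood at 19.0 and 15.5 at 16 h, against 10.8 and 7.64 at 4 h, and at 6.39 and 5.39 when fed. In these 3 genes the 16 h libraries were above both 4 h libraries, and InR and foxo had been above fed already at 4 h. Pdk1, the kinase that activates Akt, stood at 14.3 and 17.7 at 16 h, against 9.35 and 10.1 at 4 h. The FOXO target Thor, the 4E-BP repressor of translation, overlapped between the times, with 176 and 230 at 16 h, against 105 and 197 at 4 h (log2FC 0.48, 95% interval -0.69 to 1.64), where fed larvae held 3.18 and 2.46. Ilp6, the insulin-like peptide of the fat body, overlapped too, with 103.7 and 95.6 at 16 h, against 51.1 and 114.9 at 4 h (log2FC 0.37, 95% interval -0.59 to 1.33). CCHa2, a nutrient-dependent peptide signal to the brain, stood at 247 and 220 at 16 h, against 139 and 160 at 4 h, and at 68.8 and 52.4 when fed. Without scaling 10 of 17 members were positive and 0 were higher at an unadjusted p under 0.05. Leaving out 16 h replicate 1 gave 4 higher. The list median ran from 0.16 without scaling to 0.69 with rescaling over coding genes, and from 0.53 to 0.61 when any 1 of the 4 starved wild-type libraries was left out.

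The growth regulators and TOR components differed less. Myc, the transcription factor that drives ribosome production, stood at 6.18 and 5.20 at 16 h, against 3.49 and 1.58 at 4 h, and both groups were below the fed 18.6 and 18.1. srl, the fly relative of PGC-1, likewise stood at 2.27 and 2.16 at 16 h, against 1.71 and 0.854 at 4 h, where fed larvae held 41.2 and 43.0. All 6 tested members of the Myc, Max and Mnt list (which holds sug) had a positive log2FC, with a median of 0.37 (-0.06 without scaling) and 3 higher at an unadjusted p under 0.05. Of 23 TOR complex and amino acid sensing genes, 3 were higher and 0 lower at that p, and the median was 0.02. Those 3 were REPTOR, its partner REPTOR-BP (44.3 and 46.9 at 16 h, against 32.4 and 36.2 at 4 h) and the ribosomal protein kinase S6k (9.50 and 11.6 at 16 h, against 8.15 and 4.06 at 4 h).

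Enzymes of mitochondrial fatty acid oxidation stood lower at 16 h than at 4 h. Of 29 tested members of the lipolysis and fatty acid oxidation list, 13 were lower and 3 higher at an unadjusted p under 0.05, with a median log2FC of -0.35 against 0.02 for all genes, and none passed the adjusted test. scu, a mitochondrial 3-hydroxyacyl-CoA dehydrogenase, stood at 59.2 and 46.1 at 16 h, against 119 and 148 at 4 h, and at 95.1 and 113 when fed. yip2, a mitochondrial thiolase, stood at 44.7 and 37.8 at 16 h, against 117 and 137 at 4 h, and at 101 and 69.4 when fed. Mcad, the medium-chain acyl-CoA dehydrogenase, stood at 74.3 and 72.4 at 16 h, against 193 and 217 at 4 h, and at 122 and 73.8 when fed. For these enzymes both 16 h libraries were below both 4 h libraries by more than 1 on the log2 scale (log2FC -1.33 for scu, -1.60 for yip2 and -1.47 for Mcad). The trifunctional protein subunits had the same order, with Mtpbeta at 38.4 and 31.9 at 16 h, against 78.9 and 80.1 at 4 h, and Mtpalpha at 29.7 and 26.4 at 16 h, against 52.2 and 53.8 at 4 h. colt, the carnitine carrier of the inner membrane, stood at 9.72 and 8.06 at 16 h, against 19.4 and 15.1 at 4 h.

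Other members of the same list, named after their values were seen, did not stand lower. whd, the carnitine palmitoyltransferase of the outer membrane, stood at 54.5 and 59.0 at 16 h, against 39.7 and 58.5 at 4 h (log2FC 0.23, 95% interval -0.69 to 1.14), and at 11.3 and 4.99 when fed. bmm (brummer), the main lipase of lipid droplets, stood at 17.0 and 14.0 at 16 h, against 12.3 and 7.09 at 4 h, and at 1.75 and 0.768 when fed. Both genes were above fed in every starved library. Hnf4, a nuclear receptor that switches on fatty acid oxidation genes, stood at 10.2 and 11.5 at 16 h, against 6.74 and 7.27 at 4 h. The droplet protein Lsd-2 stood at 63.0 and 77.7 at 16 h, against 44.0 and 46.7 at 4 h, and bgm, a very-long-chain acyl-CoA synthetase, at 21.4 and 14.8 at 16 h, against 7.86 and 1.54 at 4 h. The list median stayed negative under every alternative setting, between -0.73 without scaling and -0.14 with rescaling over coding genes. In that rescaling the median of all genes was 0.17 and 7 members were lower at an unadjusted p under 0.05. Leaving out any 1 of the 4 starved wild-type libraries gave a median between -0.46 and -0.34.

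**Figure D3:**
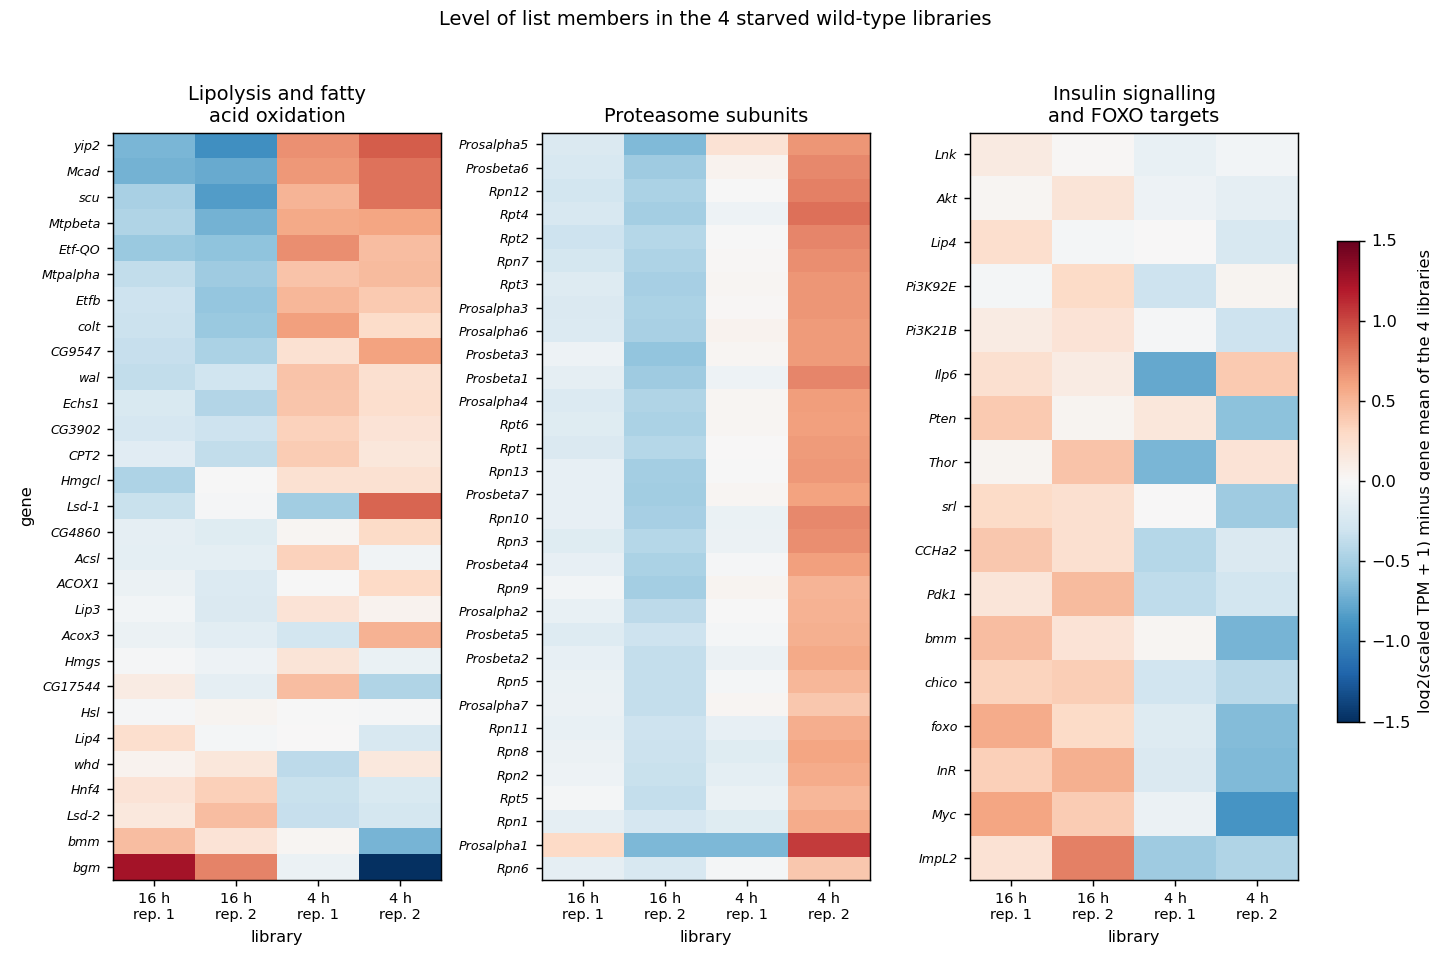
Rows are the tested members of 3 lists and columns are the 4 starved wild-type libraries; colour gives log2(scaled TPM + 1) minus the gene's mean over these libraries, cut at 1.5 in each direction. Fatty acid oxidation enzymes such as yip2, Mcad and scu are low in both 16 h libraries, the proteasome contrast is carried mainly by 4 h replicate 2, and most insulin pathway genes are high in both 16 h libraries.

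Genes of lipid synthesis did not lean as a list. Of 20 tested, 2 were higher and 1 lower at an unadjusted p under 0.05, with a median log2FC of -0.00. Over all genes tested 8.32% were higher and 7.73% lower at that p, so these counts are near the background. SCAP, the escort of the lipogenic factor SREBP, stood at 7.75 and 7.18 at 16 h, against 3.23 and 3.11 at 4 h, and at 3.78 and 4.53 when fed. ACC, acetyl-CoA carboxylase, stood at 34.7 and 27.0 at 16 h, against 14.1 and 4.56 at 4 h, close to its fed 27.99 and 33.4. ATPCL, which makes cytosolic acetyl-CoA, stood at 37.8 and 46.5 at 16 h, against 15.2 and 19.8 at 4 h, and FASN1, fatty acid synthase, at 124 and 110 at 16 h, against 62.8 and 72.5 at 4 h. In all 4 of these genes the 16 h libraries lay above the 4 h libraries, with 95% intervals that reached below 0 for ATPCL (-0.02 to 2.47) and FASN1 (-0.53 to 2.10). Men, the malic enzyme that supplies NADPH, went the other way, with 19.3 and 12.8 at 16 h, against 66.9 and 47.0 at 4 h, and 148 and 177 when fed. SREBP and the triglyceride synthase gene mdy had values near 0, with a log2FC of -0.34 (95% interval -0.90 to 0.22) for SREBP and -0.02 (95% interval -0.54 to 0.50) for mdy.

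Genes of glycolysis, the citric acid cycle and nuclear-encoded oxidative phosphorylation, whose medians were already below fed at 4 h, had negative medians again between 16 h and 4 h. Of 17 glycolysis genes 5 were lower and 0 higher at an unadjusted p under 0.05 (median log2FC -0.43). Tpi, triose phosphate isomerase, stood at 40.2 and 36.5 at 16 h, against 73.2 and 117 at 4 h, and at 172 and 190 when fed. Of 17 genes on the citric acid cycle list 6 were lower and 0 higher (median -0.31). Idh, the NADP-dependent isocitrate dehydrogenase, which the list also holds, stood at 41.0 and 40.6 at 16 h, against 116 and 112 at 4 h, and at 624 and 511 when fed. Of 68 nuclear-encoded oxidative phosphorylation genes 15 were lower and 1 higher (median -0.39). The exception was Cyt-c-p, cytochrome c, with 17.9 and 25.9 at 16 h, against 12.5 and 11.9 at 4 h, and 454 and 398 when fed. These 3 lists kept a negative median under every setting, from -0.86 (oxidative phosphorylation, without scaling) to -0.09 (citric acid cycle, rescaled over coding genes). The count of lower oxidative phosphorylation genes fell to 0 with that rescaling and to 0 without 16 h replicate 2, where their median was -0.29. Genes of the mitochondrial genome went the other way, with 10 of 13 positive and a median of 0.45, but 0 reached an unadjusted p under 0.05 in either direction, and the median was -0.38 without 4 h replicate 2 and -0.03 without scaling. The 73 mitochondrial ribosomal protein genes had 0 higher, 6 lower and a median of -0.12, which was 0.04 with rescaling over coding genes and 0.05 without 16 h replicate 2. Genes of trehalose and glucose metabolism went both ways. The trehalase Treh, which breaks trehalose down, stood at 9.04 and 8.45 at 16 h, against 6.64 and 5.09 at 4 h. The trehalose synthase Tps1 stood at 35.3 and 38.7 at 16 h, against 73.5 and 69.2 at 4 h. Pepck1, the entry enzyme of gluconeogenesis, stood at 114.8 and 169 at 16 h, against 82.0 and 53.0 at 4 h, and at 258 and 234 when fed. That list of 15 genes had 2 higher, 1 lower and a median of 0.08, which was -0.38 without scaling.

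Amino acid, nucleotide and glutathione transferase genes had negative medians as well, while cytochrome P450 genes did not lean. Of 25 amino acid catabolism genes 7 were lower and 0 higher at an unadjusted p under 0.05 (median log2FC -0.35). Got2, the mitochondrial aspartate aminotransferase, stood at 35.3 and 35.0 at 16 h, against 102 and 132 at 4 h, near the fed 104.3 and 112. Ahcy, the enzyme that clears S-adenosylhomocysteine, stood at 36.1 and 44.2 at 16 h, against 89.0 and 114 at 4 h. Of 22 purine and pyrimidine synthesis genes 6 were lower and 0 higher (median -0.50), among them awd, a nucleoside diphosphate kinase, with 122 and 127 at 16 h, against 264 and 245 at 4 h. su(r), the first enzyme of pyrimidine breakdown, which the list also holds, stood at 2.58 and 2.61 at 16 h, against 5.06 and 4.77 at 4 h. Of 39 glutathione transferase and detoxification genes 12 were lower and 1 higher (median -0.40). GstD10, a delta-class glutathione transferase, stood at 3.53 and 3.17 at 16 h, against 16.3 and 18.5 at 4 h, and at 49.4 and 44.2 when fed. GstE13, of the epsilon class, stood at 4.78 and 4.04 at 16 h, against 7.78 and 6.65 at 4 h. The 52 cytochrome P450 genes had 25 positive and 26 negative values, a median of -0.04, 1 higher and 4 lower. No member of these 4 lists passed the adjusted test. The lower counts moved with the settings: amino acid catabolism had 2 without 16 h replicate 2 and 11 without scaling, purine and pyrimidine synthesis 11 without scaling, and glutathione transferases 6 without 16 h replicate 1 and 7 with rescaling over coding genes.

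Proteasome subunit genes stood lower at 16 h than at 4 h, by a size that depended on the libraries and the scaling. All 32 proteasome subunits had a negative log2FC, with a median of -0.63 and 10 lower at an unadjusted p under 0.05. Prosalpha5, of the catalytic core ring, stood at 27.9 and 20.3 at 16 h, against 38.1 and 52.01 at 4 h, and at 46.8 and 39.0 when fed. Prosbeta6 stood at 34.8 and 28.2 at 16 h, against 42.7 and 68.5 at 4 h, and at 41.0 and 35.0 when fed. In both subunits 4 h replicate 2 was the highest library and 4 h replicate 1 was near fed. Without 4 h replicate 2 the median of the list was -0.29, and without 4 h replicate 1 it was -0.95, so the size moved with the 4 h library that was left in. The count of 10 was 0 without 4 h replicate 2, 30 without 4 h replicate 1, 0 without 16 h replicate 2, 5 without 16 h replicate 1, 0 with rescaling over coding genes and 31 without scaling. All alternative settings gave a negative median.

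Autophagy genes were above fed at both starved times, and their order between 16 h and 4 h depended on the scaling. Of 31 tested, 0 were higher and 2 lower at an unadjusted p under 0.05, and the median log2FC was -0.07. It was 0.12 with rescaling over coding genes and -0.38 without scaling, where 30 of 31 were negative and 8 lower, and -0.21 with 7 lower without 4 h replicate 1. The same genes had medians of 1.19 for 4 h minus fed and 1.12 for 16 h minus fed. Those last comparisons share the fed libraries, and each shares libraries with the comparison of 16 h and 4 h. Atg1, the kinase that starts autophagy, stood at 5.18 and 7.57 at 16 h, against 7.07 and 9.87 at 4 h (log2FC -0.36, 95% interval -0.93 to 0.20), and at 2.03 and 2.02 when fed. Atg8a, which coats autophagosome membranes, stood at 151 and 171 at 16 h, against 162 and 214 at 4 h (log2FC -0.21, 95% interval -0.76 to 0.35), and at 27.4 and 27.4 when fed. Atg7 stood at 17.6 and 12.1 at 16 h, against 12.1 and 19.8 at 4 h. The 16 h and 4 h libraries overlapped in all 3 genes, and intervals of this width leave room for differences of either sign. The 2 lower members were Uvrag, a partner of the Vps34 lipid kinase complex, with 2.27 and 2.78 at 16 h, against 5.05 and 8.74 at 4 h, and Atg6, the Beclin of the same complex, with 2.85 and 3.22 at 16 h, against 3.72 and 4.52 at 4 h. Lysosomal hydrolases leaned lower, with 6 of 21 tested lower and 0 higher at that p (median -0.49). The median was -0.16 with no filter on low values, -0.17 for genes averaging at least 5 scaled TPM and -0.20 with a pseudocount of 5, and the count was 3 without 16 h replicate 2. CtsL1, cathepsin L, stood at 52.8 and 47.3 at 16 h, against 81.3 and 122 at 4 h, and at 52.2 and 58.2 when fed. Hexo2, a beta-hexosaminidase, stood at 1.95 and 1.66 at 16 h, against 3.92 and 4.18 at 4 h. The 19 subunits of the proton pump that acidifies lysosomes had a median of -0.02, with 0 higher and 1 lower.

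Ribosome biogenesis genes had medians far below fed at both starved times, with a small difference between those times. Of 42 ribosome biogenesis genes 40 had a positive log2FC, with a median of 0.29, and 12 were higher and 1 lower at an unadjusted p under 0.05. Their medians were -3.51 for 4 h minus fed and -3.27 for 16 h minus fed. Non1, a GTPase of the large subunit pathway, stood at 143 and 144 at 16 h, against 66.1 and 73.6 at 4 h, near the fed 171 and 203. Ns2, a nucleostemin-type GTPase, stood at 11.9 and 12.7 at 16 h, against 8.07 and 6.78 at 4 h, where fed larvae held 45.9 and 47.1. hoip, a core protein of snoRNA particles, did not stand apart, at 5.62 and 4.64 at 16 h, against 5.52 and 4.22 at 4 h, where fed larvae held 259 and 239. Without scaling the list median was 0.00, with 22 positive, 20 negative and 0 higher, and without 4 h replicate 2 it was 0.17 with 2 higher. The count of 12 higher was 4 without 16 h replicate 2, 7 without 16 h replicate 1 and 21 without 4 h replicate 1. Of 33 aminoacyl-tRNA synthetases 1 was higher and 0 lower at that p (median -0.02), and the 86 cytosolic ribosomal protein genes had a median of -0.22, with 2 higher and 3 lower. That median was -0.71 with 29 lower without scaling, -0.46 with 27 lower without 4 h replicate 1, -0.06 without 4 h replicate 2, -0.13 without 16 h replicate 1, -0.35 without 16 h replicate 2 and -0.01 with rescaling over coding genes.

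Toll-regulated peptides differed between the 2 libraries at 4 h more than between the times. All 17 tested members of the Bomanin list, short secreted peptides induced through Toll, had a negative log2FC (median -1.19), yet 0 had an unadjusted p under 0.05. BomBc1 stood at 0.297 and 0.446 at 16 h, against 0.983 and 12.1 at 4 h. BomT2 stood at 19.5 and 7.12 at 16 h, against 21.8 and 135 at 4 h. In both genes 4 h replicate 2 was several times higher than 4 h replicate 1. The list median was -0.26 without 4 h replicate 2 and -2.19 without 4 h replicate 1. Drs, the antifungal peptide drosomycin, stood at 467 and 311 at 16 h, against 1299 and 4561 at 4 h, and at 0.824 and 2.09 when fed, so that every starved library was far above fed. Some antibacterial peptide genes stood higher at 16 h than at 4 h, and at 4 h lower than fed. DptA (diptericin) stood at 20.5 and 86.2 at 16 h, against 1.45 and 6.66 at 4 h, and at 58.5 and 131 when fed. Its 16 h and fed libraries overlapped. Dro (drosocin) stood at 3.09 and 28.4 at 16 h, against 1.07 and 0.682 at 4 h, and at 161 and 113 when fed. Both 16 h libraries of Dro lay below both fed ones. Of 14 antimicrobial peptide genes 9 had a positive and 5 a negative log2FC, and 3 were higher and 1 lower at an unadjusted p under 0.05. Their median of 0.86 was 0.26 without 16 h replicate 2 and 1.70 without 16 h replicate 1. It was 0.16 with no filter on low values and 0.32 with a pseudocount of 5.

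Among heat shock genes, the Hsp70 copies were far higher in 1 of the 16 h libraries than in the rest. Hsp70Ab stood at 14.1 and 189 at 16 h, against 0.904 and 6.76 at 4 h, and Hsp70Bb at 4.37 and 50.1 at 16 h, against 0.382 and 1.63 at 4 h. Both 16 h libraries were above their fed values (at most 2.28 for Hsp70Ab and 0.752 for Hsp70Bb), but 16 h replicate 2 was far above replicate 1. The Hsp70 genes are near-identical copies whose reads can be split between them. The list of 18 large chaperones had 3 higher and 0 lower at an unadjusted p under 0.05 and a median of 1.30, which was 0.38 without 16 h replicate 2 and 1.997 without 16 h replicate 1. A separate course was seen for small heat shock proteins, with summed levels of 1743 and 1517 scaled TPM at 16 h, against 2656 and 3667 at 4 h, and 63.8 and 66.2 when fed, so that all 4 starved libraries were high. Of the 10 tested 1 was higher and 0 lower at that p, with a median of -0.58 that was 0.08 without 4 h replicate 1. Hsp23 made up most of the sum, at 1458 and 740 at 16 h, against 2259 and 3017 at 4 h, and at 1.91 and 4.24 when fed.

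Hormone response and storage genes differed in both directions between 16 h and 4 h, and none passed the adjusted test. Larval age may differ between these times too, and it cannot be told apart from time without food. EcR, the ecdysone receptor, stood at 17.7 and 30.3 at 16 h, against 10.7 and 12.3 at 4 h, and at 2.54 and 2.73 when fed. Eip74EF, an early ecdysone-induced transcription factor, stood at 12.1 and 13.7 at 16 h, against 9.36 and 10.6 at 4 h, and at 0.899 and 0.915 when fed. Eip63F-1, a calcium-binding ecdysone-induced protein, stood at 2.60 and 5.84 at 16 h, against 16.2 and 17.3 at 4 h, and at 2.01 and 1.22 when fed. Of 22 ecdysone response genes 2 were higher and 4 lower at an unadjusted p under 0.05, with a median log2FC of 0.13 that was -0.24 without scaling and -0.12 without 16 h replicate 2. Lsp2, a larval storage protein, stood at 23728 and 24705 at 16 h, against 13545 and 19647 at 4 h, and at 2373 and 5703 when fed. Fbp1, the receptor that takes storage protein back into the fat body, stood at 9098 and 5641 at 16 h, against 8866 and 23553 at 4 h, and at 6.56 and 13.0 when fed. Neither passed (log2FC 0.57, 95% interval -0.63 to 1.77 for Lsp2, and -1.01, 95% interval -2.39 to 0.37 for Fbp1). Yp3, a yolk protein gene, had the smallest p among storage genes, at 13.3 and 47.6 at 16 h, against 0.118 and 1.78 at 4 h, and at 8.05 and 14.7 when fed.

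**Figure D4:**
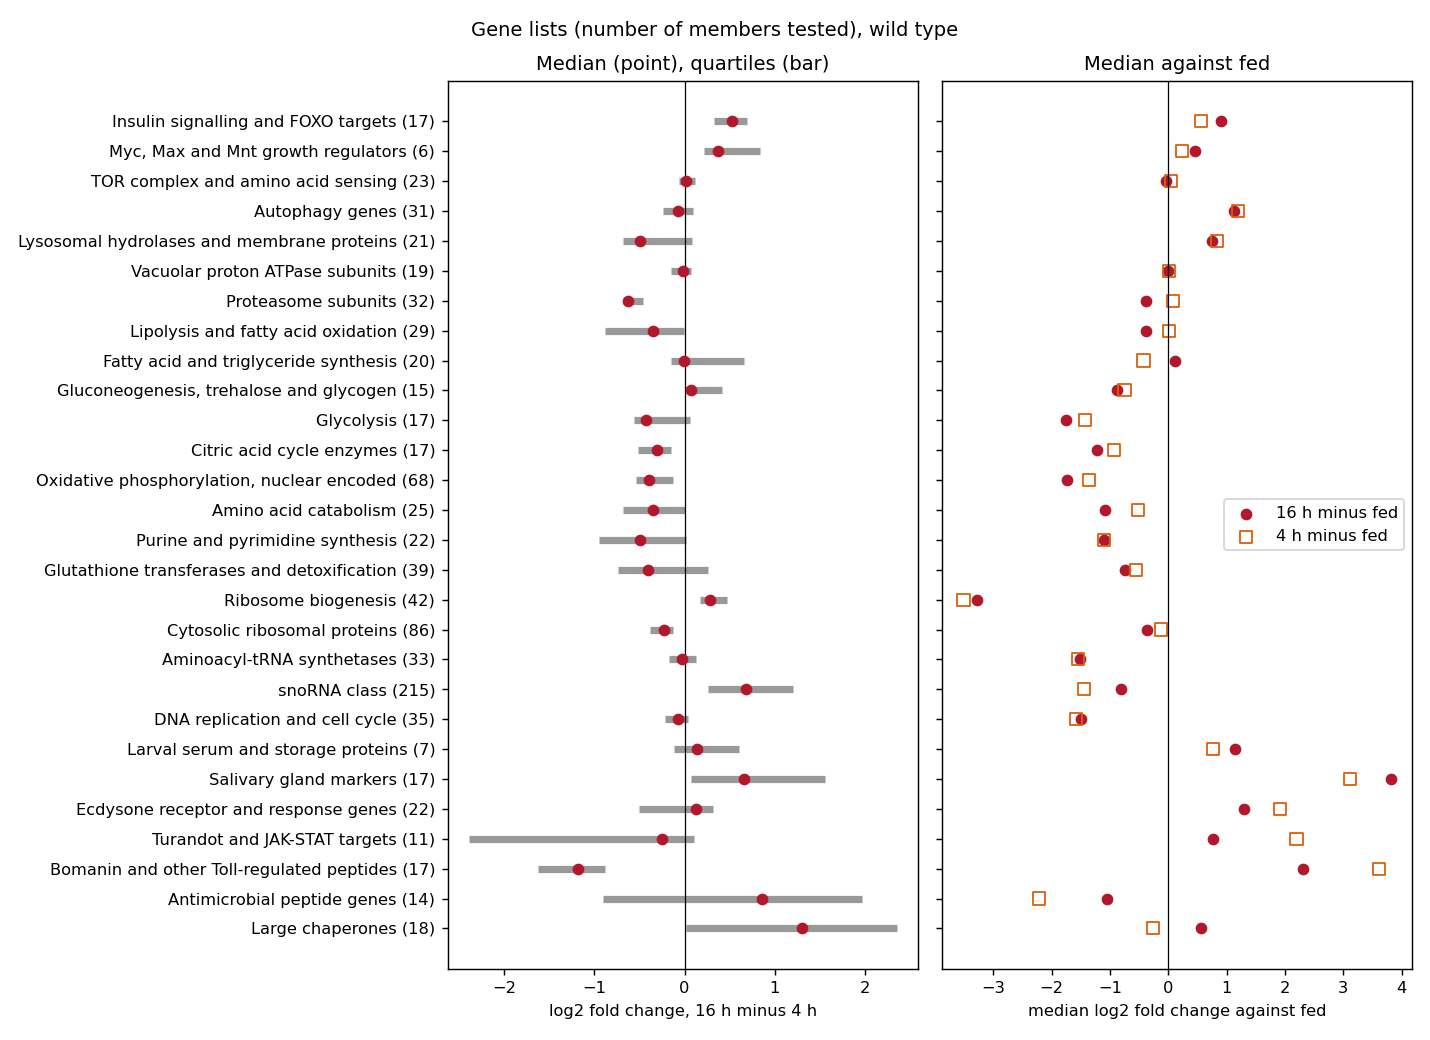
Left, the median log2FC of 16 h minus 4 h (points) and its quartiles (bars) over the tested members of 28 lists, with the number of members in brackets. Right, the medians of 16 h minus fed and 4 h minus fed for the same lists, which share the fed libraries. Ribosome biogenesis lies at -3.27 (16 h) and -3.51 (4 h) against fed and at 0.29 between the starved times, while Bomanin, proteasome and fatty acid oxidation genes lie to the left of 0 between 16 h and 4 h.

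Marker genes of several larval tissues were summed in each library. The 15 fat body markers summed to 76332 and 73547 scaled TPM at 16 h, against 53594 and 93738 at 4 h, the largest sum of any marker list in every starved library. The list of storage proteins, which shares Lsp2 and Fbp1 with these markers, summed to 73529 and 71195 at 16 h, against 51361 and 91302 at 4 h. The marker sum is therefore mainly a sum of storage protein genes and does not measure the share of fat body tissue. Of the 15 fat body markers, 14 were tested, with 2 higher and 0 lower at an unadjusted p under 0.05 (median log2FC 0.28). The 18 salivary gland markers summed to 15216 and 41798 at 16 h, against 23678 and 25430 at 4 h, and to 1067 and 3386 when fed. Of 17 tested, 4 were higher and 0 lower at that p (median 0.66, or 0.34 without 4 h replicate 2), including the glue gene Sgs3 at 330 and 135 at 16 h, against 53.8 and 93.0 at 4 h. The 23 testis and gonad markers summed to 127 and 15.4 at 16 h, against 51.9 and 15.9 at 4 h, and to 33.7 and 4.90 when fed, so that they were high in replicate 1 of each of these groups. Their median of 0.87 was -0.28 without 16 h replicate 1 and -0.08 without 4 h replicate 2. The 17 hemocyte markers summed to 261 and 230 at 16 h, against 286 and 258 at 4 h, and 3 of 14 tested were lower and 0 higher. He (hemese) led these, at 2.42 and 3.85 at 16 h, against 11.8 and 9.93 at 4 h. The 22 muscle markers summed to 65.9 and 93.1 at 16 h, against 77.7 and 62.1 at 4 h, and the 43 midgut markers to 76.6 and 72.9 at 16 h, against 80.9 and 116 at 4 h, with 33 midgut members under 1 in all 4 starved libraries. The 9 tracheal markers summed to 3.18 and 4.42 at 16 h, against 11.4 and 6.19 at 4 h. The 15 neuron and glia markers summed to 38.3 and 34.5 at 16 h, against 71.4 and 67.0 at 4 h, and Syt1 made up most of that sum, while elav stood at 0.378 and 0.391 at 16 h, against 4.55 and 0.132 at 4 h. The part these tissues play in the gene differences was not tested, and fewer cells of a type cannot be told apart from less RNA per cell.

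Isoform use did not separate the times at the threshold. Of 5289 isoforms of 1995 genes tested with limma on the log2 ratio of an isoform to the other isoforms of its gene, 0 passed (0% of isoforms; smallest adjusted p = 0.307), and 523 (9.89% of isoforms) had an unadjusted p under 0.05, 313 higher and 210 lower at 16 h. The isoforms of smallest p are given as values. eRF3-RD, from the translation release factor gene (chromosome 2L, 12434892 to 12440602, plus strand), was listed at 0% of the gene's TPM in both 16 h libraries, against 23.7% and 29.8% at 4 h, and at 32.6% and 29.7% when fed. The gene itself held 10.8 and 18.3 unscaled TPM at 16 h, against 21.3 and 17.0 at 4 h. Its 3′ UTR in the annotation (1038 nt) and its coding length (1857 nt) equal those of eRF3-RA, which begins upstream at 12434452. RFeSP-RE, of the Rieske iron-sulfur protein of complex III, was listed at 100% in both 16 h libraries, against 66.1% and 46.3% at 4 h, and RFeSP-RB at 0% in both 16 h libraries, against 30.7% and 52.9% at 4 h. These forms code for the same length of protein (690 nt) and differ in their annotated 3′ UTR, which is 223 nt in RFeSP-RE and 74 nt in RFeSP-RB. muc-RF, of the dihydrolipoamide acetyltransferase of pyruvate dehydrogenase, made up 44.0% and 32.4% at 16 h, against 82.5% and 92.9% at 4 h, and 91.3% and 94.4% when fed. For these 3 genes the 4 h libraries were near fed and the 16 h libraries apart.

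Other isoforms followed a different order. Cul3-RF, whose coding part (2802 nt) is longer than that of Cul3-RC and Cul3-RD (2319 nt), made up 8.38% and 4.46% at 16 h, against 37.2% and 32.8% at 4 h, and 5.75% and 2.02% when fed. Only the 4 h libraries were high in it. mrj-RA, of a DnaJ-type co-chaperone, made up 39.5% and 35.3% at 16 h, against 18.7% and 12.6% at 4 h, and 6.77% and 0% when fed, and Ssadh-RE, of succinate semialdehyde dehydrogenase, 15.3% and 13.2% at 16 h, against 0.945% and 1.86% at 4 h. Syt1-RA made up 5.57% and 5.45% at 16 h, against 21.9% and 29.4% at 4 h. The forms Gss1-RF and Gss2-RF of the glutathione synthetase pair had identical values (10.2% and 11.2% at 16 h, against 1.94% and 1.76% at 4 h), and reads of these near-identical neighbours cannot be told apart. CG5793-RD made up 33.7% and 25.0% at 16 h, against 9.63% and 4.81% at 4 h, and CG5793-RB made up 63.2% and 74.0% at 16 h, against 88.3% and 93.9% at 4 h. CG1092-RC made up 32.5% and 47.7% at 16 h, against 8.05% and 9.72% at 4 h, with CG1092-RD as its complement. CG16758-RE made up 7.603% and 7.65% at 16 h, against 2.83% and 1.81% at 4 h, and maf-S-RA 84.5% and 84.4% at 16 h, against 93.4% and 94.6% at 4 h. Shares are the authors' tool's estimates from short reads, and of the genes named here all but CG16758 held under 20 unscaled TPM in at least 1 library at 16 h, down to 2.70 in CG1092.

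**Figure D5:**
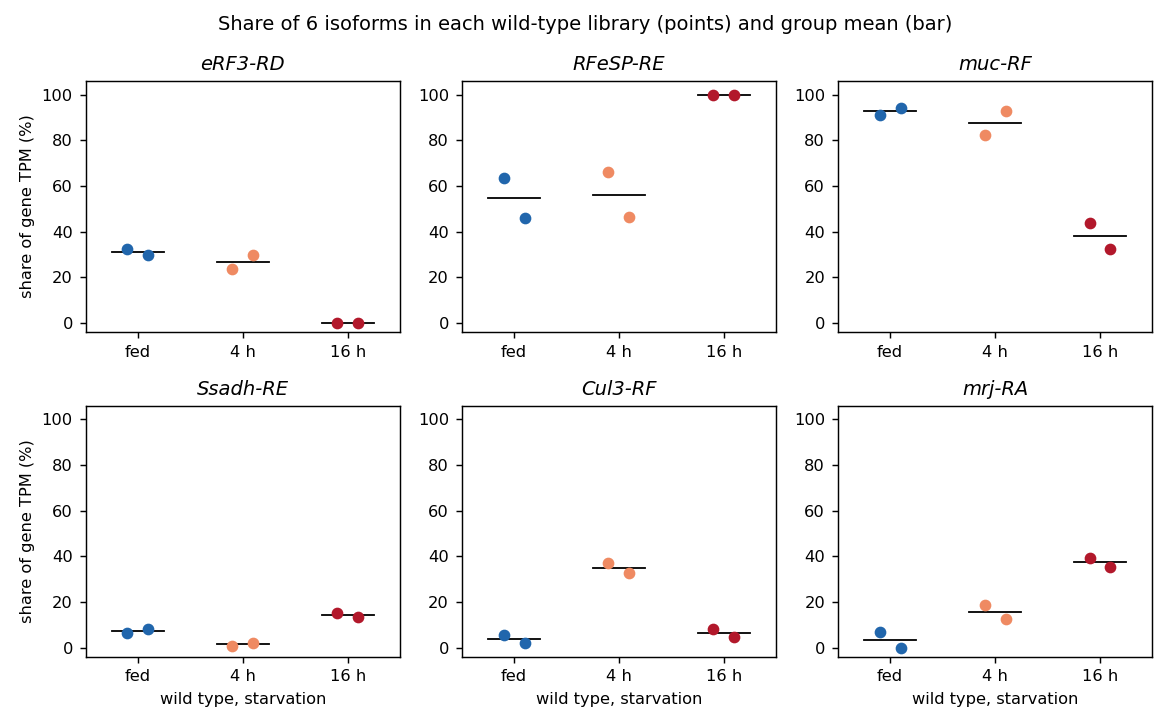
Share of the gene's TPM held by 6 isoforms in each fed, 4 h and 16 h wild-type library (points), with the mean of each group as a bar. eRF3-RD, RFeSP-RE and muc-RF are near their fed share at 4 h and apart at 16 h, Cul3-RF is high at 4 h only, and none passed the adjusted test.

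Cpsf5, the gene mutated in the mutant libraries and a subunit of the factor that helps choose polyadenylation sites, did not stand apart between the starved times in wild type. It stood at 5.06 and 4.20 at 16 h, against 6.47 and 3.62 at 4 h, and at 11.98 and 10.9 when fed (16 h minus 4 h: log2FC -0.07, SE 0.24, 95% interval -0.65 to 0.52, limma adjusted p = 0.918), and its sign depends on the scaling (0.10 with rescaling over coding genes). The 16 h and 4 h libraries overlapped. It overlaps Atat on the other strand. Of 18 cleavage and polyadenylation factor genes, 4 were lower and 0 higher at an unadjusted p under 0.05 (median log2FC -0.19), and 0 were lower with rescaling over coding genes. Among the 4 were Cpsf100, with 2.03 and 2.39 at 16 h, against 3.63 and 4.37 at 4 h, and Cpsf6, the partner of Cpsf5, with 3.92 and 3.07 at 16 h, against 5.38 and 4.60 at 4 h.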

How the data were processed

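RNA of the larval fat body was sequenced in 8 libraries of 4 groups, of which 2 at 16 h and 2 at 4 h of wild-type starvation are compared. Per the labels' protocols, RNA was taken with Trizol, checked on a Bioanalyzer and made into libraries with a stranded total RNA kit after ribosomal RNA removal. The submitters' processing notes name STAR 2.5.3 and build BDGP6, with the quantifier, annotation and use of strand left out (not given in the sources used here). Deposited by the authors were TPM per gene (17471) and per transcript (34485).

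Names and coordinates came from a later BDGP6 annotation (17249 genes matched by ID, 132 by isoform sums, 90 unmatched). TPM were divided by median-of-ratios factors. Genes averaging at least 1 were tested in R 4.3.3 (limma 3.58.1, two-sided) after a log2(scaled TPM + 1) transform, over all 8 libraries, with a mean for each group and a variance trend. Isoforms entered when their share averaged between 5% and 95% and their gene at least 5 TPM. The script was tested on simulated data. Named genes are Cpsf5, those that passed and the protein-coding genes of smallest p without overlap whose higher group averaged at least 5 scaled TPM, to 12 a direction. Of each list, members of smallest p, defining members and some chosen after their values were seen are named. The members, lists and tests were chosen with earlier results of these data known. Of the names in 53 lists, 31 found no gene. No sequences were at hand, so none are shown.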

Additional observations from a re-analysis of the deposited data

How the results depend on the processing

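The number of genes past the adjusted threshold was small and moved with the settings. In place of 0 higher and 3 lower, limma gave 1 and 14 without scaling, 2 and 1 with rescaling over coding genes, and 4 and 9 with quantile normalization. It gave 0 and 0 with a pseudocount of 0.1 (721 and 645 at an unadjusted p under 0.05), 1 and 7 with a pseudocount of 5, 0 and 1 with no filter on low values, and 0 and 0 when genes had to average at least 5 scaled TPM (388 and 389 at an unadjusted p under 0.05). A fit of the 4 starved wild-type libraries alone gave 0 and 0 (431 and 399 at an unadjusted p under 0.05), the 6 wild-type libraries 0 and 1, and no variance trend 1 and 5. Leaving out each library in turn gave 0 to 15 higher and 0 to 9 lower; the largest, 15 and 8, came without 16 h replicate 2, then 7 and 9 without 16 h replicate 1 and 3 and 9 without 4 h replicate 2. The cause was not tested. CG13135 passed in 14 of 18 alternatives, Prip in 6 of 18 and bdg in 6 of 17. Isoform calls were 0 under all 14 alternatives run, with 209 to 832 isoforms at an unadjusted p under 0.05 and a smallest adjusted p from 0.0714 to 0.837. Cpsf5 (-0.07) changed sign with rescaling over coding genes (0.10), without 4 h replicate 1 (0.28) and without 16 h replicate 2 (0.04), and stood at -0.41 without 4 h replicate 2 and at -0.45 without scaling. No paired analysis was possible because the labels carry no replicate numbers. Unknown depth, 2 libraries a group and ribosomal RNA shares that differ with time limit all values.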

Other observations

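Small nuclear and nucleolar RNAs stood higher at 16 h than at 4 h as a class, which was chosen after its values were seen. Other classes outside the protein-coding genes leaned the same way. The median log2FC was 0.26 for 225 other noncoding RNA genes (33 higher and 14 lower at an unadjusted p under 0.05) and 0.26 for 57 pseudogenes. It was 1.19 for 50 genes unmatched to the annotation (17 higher and 3 lower at that p), against -0.00 for 7645 protein-coding genes. snoRNAs guide the chemical modification of ribosomal RNA and are mostly cut from introns. Of 215 snoRNA genes tested, of 258, 186 had a positive log2FC, 89 were higher and 2 lower at an unadjusted p under 0.05 (backgrounds 8.32% and 7.73%), and the median was 0.68. None passed the adjusted test (limma). snoRNA:Psi28S-3378 stood at 862 and 767 scaled TPM at 16 h, against 158 and 190 at 4 h, and at 300 and 359 when fed (log2FC 2.22, limma adjusted p = 0.050003). snoRNA:Me18S-C1096 stood at 20.8 and 60.3 at 16 h, against 1.12 and 6.42 at 4 h. The class median was -1.44 for 4 h minus fed and -0.81 for 16 h minus fed. The class median of 16 h minus 4 h was 0.26 without scaling, where 34 were higher and 3 lower at an unadjusted p under 0.05. It was 0.83 with rescaling over coding genes, and ran from 0.59 to 0.90 when any 1 starved wild-type library was left out. Of the 31 spliceosomal and other snRNA genes, 11 were higher and 1 lower, with a median of 0.83 that was 0.36 without 4 h replicate 2. The share of ribosomal RNA was also higher at 16 h (55.1% and 35.2%) than at 4 h (13.7% and 15.8%). When fed it was 5.9% and 7.07%, below 4 h, whereas the snoRNA median was lower at 4 h than when fed. The part of ribosomal RNA in these differences was not tested.

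A few genes were much lower at 4 h than in either other group. They were picked by the size of their difference after the values were seen, none passed the adjusted test, and their functions are not named in the annotation. CG32071 stood at 78.6 and 171 at 16 h, against 1.07 and 0.295 at 4 h, and at 7.77 and 150 when fed. Its neighbour CG32073 stood at 98.7 and 60.4 at 16 h, against 3.05 and 0.465 at 4 h, and at 82.4 and 131 when fed. The 2 genes lie on the minus strand of chromosome 3L, at 11103421 to 11103873 and 11107008 to 11107582. CG15741 stood at 128 and 75.9 at 16 h, against 1.59 and 0.343 at 4 h, and at 34.2 and 77.6 when fed. CG34278 stood at 322 and 275 at 16 h, against 49.7 and 7.46 at 4 h, and at 229 and 564 when fed. In all 4 genes both fed and both 16 h libraries were above both 4 h libraries, and 4 h replicate 2 was the lowest. CG6788 had the reverse course, with 12.7 and 0.208 at 16 h, against 70.2 and 161 at 4 h, and 0.293 and 0.215 when fed.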
